A study of Bos taurus with 29 samples.

Results

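COL15A1 (ENSBTAG00000010082), CDH17 (ENSBTAG00000021964) and IL20RA (ENSBTAG00000015638) are 3 of the 24596 genes in the deposited table, and they are described here across 29 heifer calves. They were chosen by their read counts in these same calves, as transcripts that the study's diet comparison listed as more abundant in the hypothalamus of calves on a high plane of nutrition (HI) than of calves on a moderate plane (MOD). Their diet difference is therefore given as a description without a test. The spread among calves of 1 diet is described too, since calves with high values raise the HI mean on which the choice rested. Whether the same calves were high for more than 1 gene was tested on values from which the diet means had been removed.

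The tissue was the hypothalamus left after the arcuate nucleus had been dissected away, and RNA was sequenced from 14 HI and 15 MOD calves, 1 library from each animal. All calves were Angus crossed with Holstein-Friesian heifers, sampled at 21 weeks of age. HI calves were given 1.5 kg of milk replacer daily in 10 litres, with unrestricted concentrates, and were meant to gain 1.2 kg/d. MOD calves were given 0.5 kg in 4 litres with 1 kg of concentrates, and were meant to gain 0.5 kg/d. Both diets continued after weaning with hay to appetite, HI calves with unrestricted concentrates and MOD calves with 1 kg. The diets began at 2 weeks of age per the sample labels. The study's methods put the start later.

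Collagen type XV alpha 1 chain, encoded by COL15A1, is a proteoglycan collagen that lies at the outer face of basement membranes, around small vessels among other structures, and its C-terminal end resembles endostatin. Cadherin 17, encoded by CDH17, is a calcium-dependent cell adhesion protein best known from the epithelium of the intestine. IL20RA encodes a subunit of the receptor through which interleukin 19, interleukin 20 and interleukin 24 signal by way of JAK kinases and STAT3. In the RefSeq gene table of a later bovine assembly the 3 genes did not overlap an annotated gene. Their nearest protein-coding neighbours there were GALNT12 and TGFBR1 for COL15A1, GEM and PDP1 for CDH17, and SLC35D3 and IL22RA2, the gene of a soluble interleukin 22 receptor, for IL20RA.

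Values are counts scaled to library size (CPM) after TMM normalisation, which corrects library sizes by a trimmed mean of log ratios, and the whole reads behind them were recovered. Totals lay between 11820640 and 17206435 reads per calf with a median of 13723597. The 4 neuronal genes CHGA, GAD2, NEFH and SV2B summed to between 911.9 and 1828 CPM in HI and between 199.5 and 2165 CPM in MOD calves. NKX2-1, a transcription factor of the developing hypothalamus, had no read in 6 of the 29 calves. MOD calves 1689, 1395 and 2551 and HI calf 2120 stood apart from the other libraries, with mean distances of 3.13 to 3.51 on the log2 scale over the 500 most different genes of each pair, against 2.44 or less for all other calves. In bulk tissue, more cells of a type and more RNA per cell cannot be told apart.

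COL15A1 was more abundant in HI calves, with a few of them far above the rest. Among the 14 HI calves it ran from 12.8 CPM in calf 2120 through a median of 22.5 CPM to 186.3 CPM in calf 2535. Among the 15 MOD calves it ran from 6.83 CPM in calf 2537 through a median of 14.2 CPM to 27.4 CPM in calf 991. The groups overlapped, with 5 HI calves above every MOD calf, which 0.406% of the genes past a filter on low values reached, and 6 MOD calves below every HI calf. The means were 46.1 ± 57.0 CPM (SD) for HI and 15.0 ± 6.41 CPM for MOD, a ratio of 3.08.

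HI calves 2535 and 553, at 186.3 and 172.1 CPM, together held 55.6% of the COL15A1 signal summed over the HI calves. The next highest HI calves were 3148 with 43.6 CPM, 2570 with 36.7 CPM and 1089 with 29.5 CPM. The high values of calves 2535 and 553 rested on 2876 and 2109 reads, so that their 95% Poisson intervals, which cover counting error only, were 179.6 to 193.3 CPM and 164.8 to 179.6 CPM. Without both calves the mean of the remaining 12 HI calves was 23.9 ± 8.77 CPM (SD). Its ratio to the mean of all 15 MOD calves was 1.6, close to the ratio of the medians, 1.58. Without its own 2 highest calves the MOD mean was 13.4 ± 5.16 CPM (SD). The other HI calves also lay high, since all but 1 HI calf (13 of 14) exceeded the MOD median and 13 of 15 MOD calves were below the HI median. Of the 13785 genes past the filter, which asked for more than 1 CPM in at least 14 calves, 1.26% had at least 13 HI calves above the MOD median.

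IL20RA was likewise higher in HI calves, with a wide overlap between the diets. Its level in HI calves ran from 2.07 CPM in calf 1050 through a median of 6.73 CPM to 27.3 CPM in calf 2120, and in MOD calves from 1.14 CPM in calf 981 through a median of 4.29 CPM to 11.1 CPM in calf 1395. The 4 HI calves above every MOD calf were 2120, 3148 with 21.2 CPM, 1388 with 15.4 CPM and 2570 with 12.1 CPM. At least 4 such HI calves were found for 1.23% of the filtered genes. The means were 9.57 ± 7.30 CPM (SD) and 4.97 ± 2.81 CPM, a ratio of 1.93, and the ratio of medians was 1.57. The highest calf of each diet, 2120 and 1395, was among the 4 libraries that stood apart. Leaving out calf 2120 lowered the ratio of means to 1.65, and without the 2 highest HI calves it was 1.43. Both ratios kept all MOD calves. Without the 2 highest calves of each diet the means were 7.12 ± 3.95 CPM (SD) in HI and 4.20 ± 2.03 CPM in MOD. Without the 4 libraries that stood apart, the limma difference of IL20RA was 0.66 on the log2(CPM + 1) scale, against 0.70 with them. The MOD median was exceeded by 12 of the 14 HI calves, and at least 12 did so for 4.76% of the filtered genes.

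CDH17 was close to the limit of detection in most calves of both diets and plainly present in a few. It was under 1 CPM in 8 of 14 HI and 11 of 15 MOD calves, with a median of 10.5 reads in HI and 7 reads in MOD. In HI calves it ran from 0.137 CPM, or 2 reads, in calf 2570 through a median of 0.727 CPM to 11.7 CPM, or 143 reads, in calf 553. In MOD calves it ran from 0.0871 CPM, or 1 read, in calf 991 through a median of 0.563 CPM to 6.18 CPM, or 97 reads, in calf 2532. The HI calves next to 553 were 2528 with 8.30 CPM, 1050 with 5.70 CPM, 1089 with 3.85 CPM and 1707 with 2.96 CPM. In MOD, the calf after 2532 was 3622 with 2.38 CPM.

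The CDH17 means were 2.66 ± 3.57 CPM (SD) in HI and 1.02 ± 1.54 CPM in MOD, a ratio of 2.61, whereas the ratio of medians was 1.29. Without calf 553 the ratio of means was 1.93, and without calves 553 and 2528 it was 1.41. Both ratios kept all MOD calves. Without the 2 highest calves of each diet the means were 1.44 ± 1.77 CPM (SD) in HI and 0.516 ± 0.323 CPM in MOD. MOD calf 2532 alone held 40.5% of the CDH17 signal of its diet. Calves 553 and 2528 were the 2 HI calves above every MOD calf, a number that 9.88% of the genes with at least 1 read reached. The MOD median was exceeded by 9 of 14 HI calves, and at least 9 did so for 29.5% of those genes. At these depths the low calves could not be ordered, since the 95% Poisson interval of calf 991 reached 0.485 CPM and that of calf 2570 reached 0.495 CPM.

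**Figure D1:**
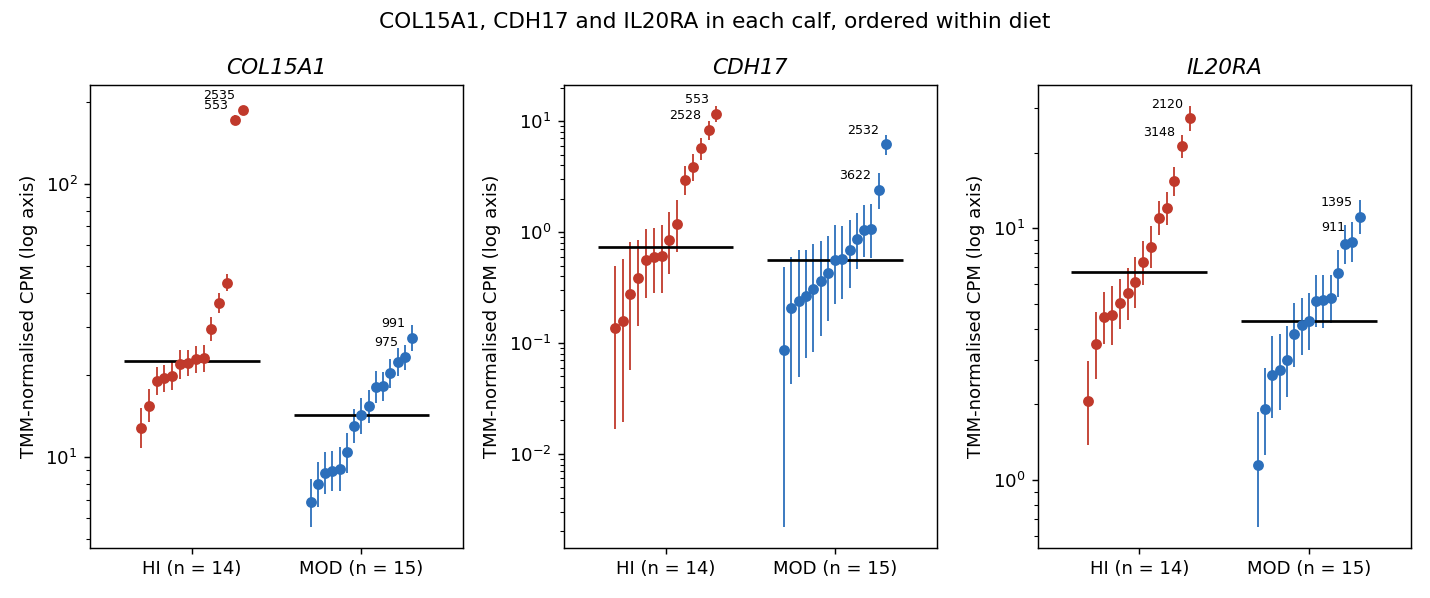
Level of COL15A1, CDH17 and IL20RA in each calf in TMM-normalised CPM on a logarithmic axis, ordered within HI (red) and MOD (blue), with 95% Poisson intervals for the reads of each calf and the diet median as a line. HI calves 2535 and 553 stand alone for COL15A1 at 186.3 and 172.1 CPM, CDH17 is under 1 CPM in most calves, and the diets overlap for each gene.

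On the scale of log2(CPM + 1), the limma difference of HI minus MOD was 1.10 (SE 0.32) for COL15A1, 0.70 (SE 0.29) for IL20RA and 0.56 (SE 0.34) for CDH17. CDH17 exceeded 1 CPM in 10 calves and did not pass the filter of 14 calves, so that its value was taken from the fit to all 19525 genes that had a read in any calf. The study's methods also state a filter of 1 CPM and 14 samples, although its comparison listed CDH17. A ratio of diet means over 1.5 in favour of HI was found for 0.392% of the filtered genes and for 7.13% of the genes with at least 1 read, and it held for all 3 genes, as the choice of the genes had fixed. Across the table, limma called 0 of 13785 genes (0%) between the diets at an adjusted p under 0.10 with a fold over 1.5, with 179 genes at an unadjusted p under 0.05. Over the same genes, the edgeR quasi-likelihood test on recovered reads called 0, the edgeR exact test with tagwise dispersion called 1 and DESeq2 called 2. The study itself reported more differing genes in this tissue than any of these tests. These counts describe the whole table, and nothing is read from them about the 3 genes.

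The size of the difference depended on the scale and on a few high calves for both COL15A1 and CDH17. For CDH17, models of the counts gave log2 ratios of 1.36 by edgeR quasi-likelihood and 1.38 by DESeq2, and the log2 ratio of the means was 1.39. On the scale of log2(CPM + 1), which compresses values under 1 CPM, it was 0.56. With a pseudocount of 0.1 CPM in place of 1 CPM the CDH17 difference was 0.86, still below the count models. Leaving out calf 553 brought the limma difference of CDH17 from 0.56 to 0.39. For COL15A1 the count models gave 1.61 to 1.62, against 1.10 by limma on log2(CPM + 1). Leaving out calves 553 and 2535 brought this limma difference to 0.68. For IL20RA all settings lay between 0.66 and 0.95. The sign was positive for the 3 genes in each of the 11 settings and with each of the 29 calves left out in turn.

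**Figure D2:**
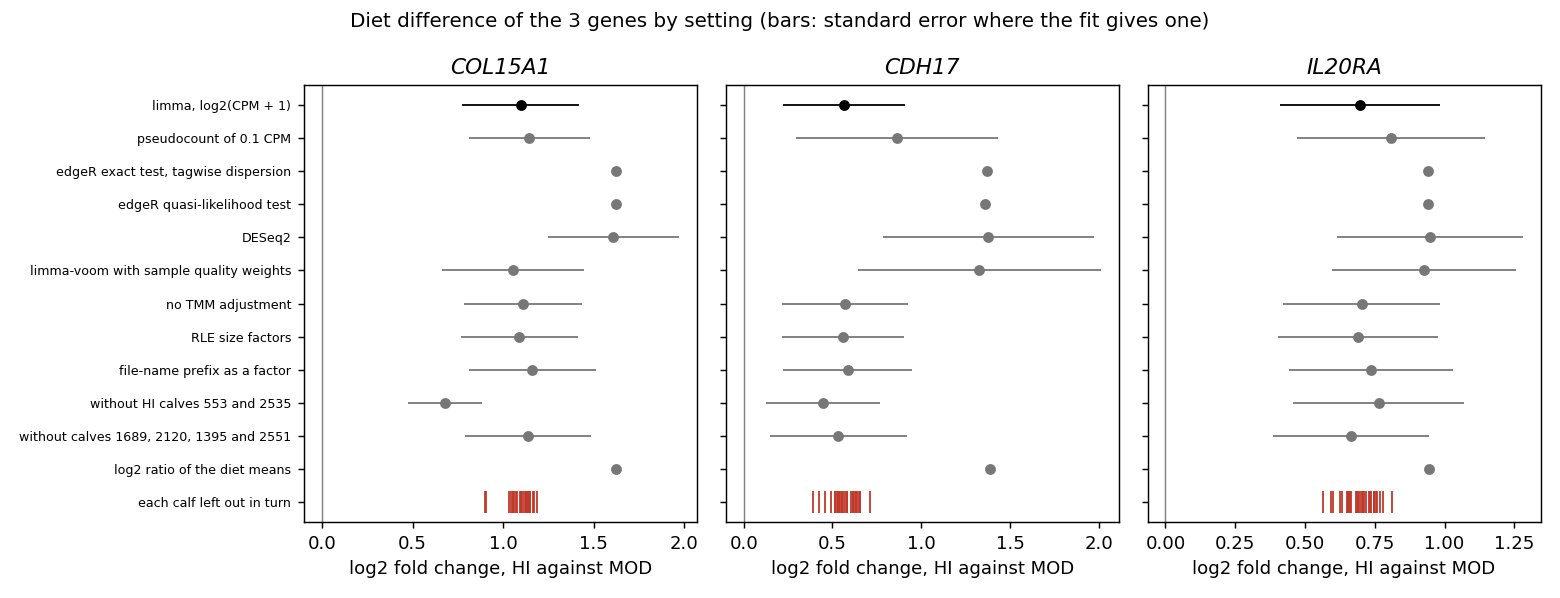
Log2 fold change of HI against MOD for COL15A1, CDH17 and IL20RA (horizontal axes) under each processing setting (rows), with the value as reported in black, alternatives in grey with their standard error where the fit gives one, and fits without 1 calf as red ticks. All values lie above 0, COL15A1 falls to 0.68 without calves 553 and 2535, and CDH17 spreads from 0.39 (without calf 553) to 1.39.

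The 29 libraries carried 5 different prefixes in the names given to their sequence files, whose meaning is not stated in the sources used here, and each prefix held calves of both diets. COL15A1 was higher in HI in 5 of 5 prefixes, by 0.41 to 1.90 on the log2(CPM + 1) scale, and IL20RA in 5 of 5 prefixes, by 0.16 to 1.24. CDH17 was higher in HI in 3 of 5 prefixes, with differences from -0.74 to 1.56. With the prefix as a factor in the fit the differences were 1.16, 0.74 and 0.59 for COL15A1, IL20RA and CDH17. The differences within prefixes are parts of the diet contrast that chose the genes, and they are given as a description. The share of all genes that were higher in HI in every prefix was not computed.

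The spread among calves of a diet was wide for the 3 genes, and it is not independent of the choice of the genes, which a few high HI calves favour. The SD among calves of a diet was 0.90 on the log2(CPM + 1) scale for COL15A1 and 0.80 for IL20RA, against a median of 0.43 over the filtered genes, which placed them at the 91.8 and 87.8 percentiles. For CDH17 it was 0.96 against a median of 0.35 over the genes with at least 1 read, at the 95.2 percentile. Among the 500 genes nearest in expression, 55 had a larger SD than COL15A1, 76 a larger SD than IL20RA and 18 a larger SD than CDH17. For COL15A1 the SD was 1.15 within HI and 0.59 within MOD. The corresponding values were 1.18 and 0.70 for CDH17, and 0.91 and 0.69 for IL20RA.

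The highest calf of each diet differed between the 3 genes, and no calf was among the 5 highest of its diet for all 3 genes. COL15A1 and CDH17 shared calves 553 and 1089 among their 5 highest HI calves, COL15A1 and IL20RA shared calves 2570 and 3148, and CDH17 and IL20RA shared calf 1707. Among the 5 highest MOD calves, COL15A1 and CDH17 shared calves 975 and 3622, COL15A1 and IL20RA shared calf 1690, and CDH17 and IL20RA shared 3 calves, 911, 2532 and 2537. Calf 2535, highest for COL15A1, was 11th of the 14 HI calves for CDH17 with 0.389 CPM and 10th for IL20RA with 5.05 CPM. Calf 2120, highest for IL20RA, was 14th for COL15A1 and 12th for CDH17. Calf 553, highest for CDH17 and second for COL15A1, was eighth for IL20RA with 6.12 CPM.

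Counted over the genes, 8 of 14 HI calves exceeded every MOD calf for at least 1 gene. Calves 553, 2570 and 3148 did so for 2 genes and 0 calves did so for all 3 genes. The other 6 HI calves, 986, 1050, 1360, 1531, 1707 and 3620, lay within the MOD range or below it for each gene. By the milder measure of the MOD median, 7 HI calves exceeded it for all 3 genes, 6 for 2 genes and 1 for 1 gene. The MOD calves, which lie evenly about their own median by construction, were above it for all 3 genes in 1 case, for 2 genes in 6 cases, for 1 gene in 6 cases and for none in 2 cases. These counts use the diet contrast that chose the genes and are given as a description.

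**Figure D3:**
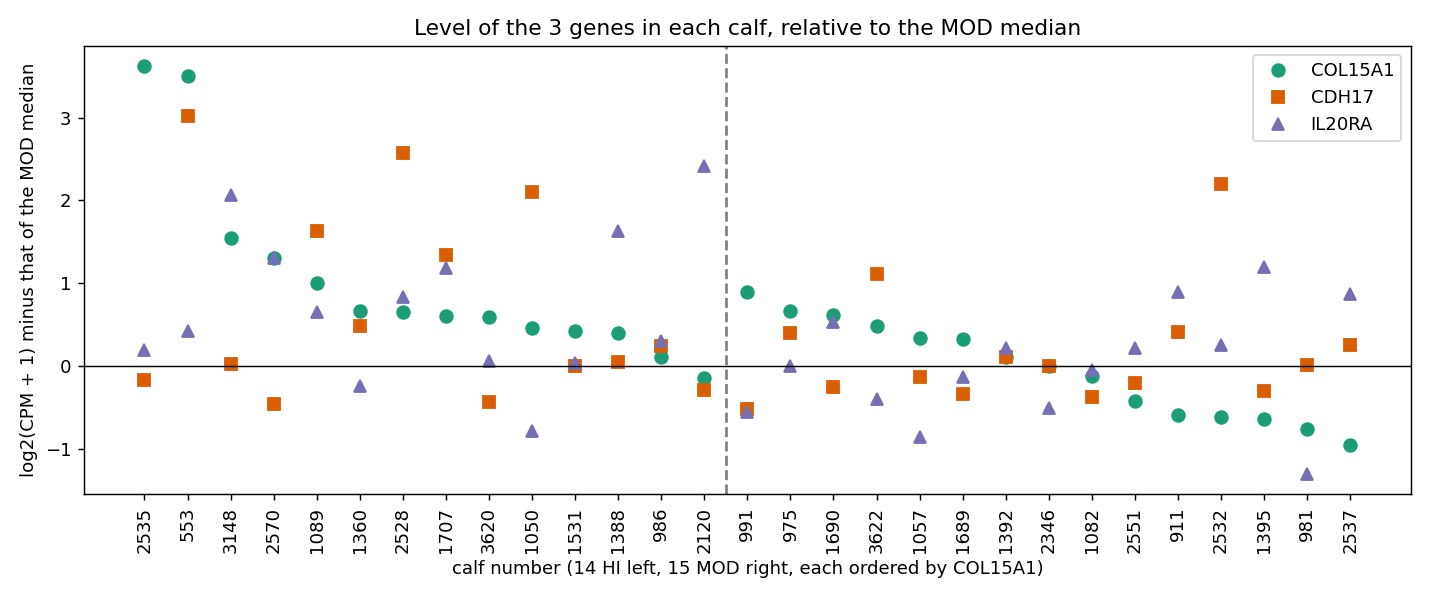
COL15A1 (circles), CDH17 (squares) and IL20RA (triangles) in each calf as log2(CPM + 1) minus that of the MOD median, with 14 HI calves on the left and 15 MOD calves on the right, each ordered by COL15A1. The highest calf differs between the genes (2535 for COL15A1, 553 for CDH17 and 2120 for IL20RA), and calf 553 is high for COL15A1 and CDH17 together.

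After the diet means had been removed, no pair of the 3 genes was correlated across the 29 calves beyond permutation (100000 permutations of calves within diets, two-sided, 9 correlations in the family). For COL15A1 and CDH17 Pearson r was 0.111 (permutation p = 0.652, adjusted p = 0.762) and Spearman rho was -0.0184 (permutation p = 0.930, adjusted p = 0.930). This small positive r turned to -0.114 without calves 2535 and 553, the 2 farthest from the median of COL15A1, and to -0.201 without calf 553 alone. For COL15A1 and IL20RA r was -0.192 (permutation p = 0.374, adjusted p = 0.692) and rho was -0.151 (permutation p = 0.449, adjusted p = 0.835), with an r of -0.120 without calves 2535 and 553. For CDH17 and IL20RA r was -0.171 (permutation p = 0.421, adjusted p = 0.692) and rho was -0.100 (permutation p = 0.629, adjusted p = 0.835), with an r of -0.190 without calves 553 and 2528. An absolute r of up to 0.396 to 0.412 arose in 95% of the permutations. An observed r had to exceed this size for an unadjusted p under 0.05. Relations that are weaker, or of about this size, could therefore be missed with this number of calves. The pairs with CDH17 are limited further by counting error, since its low calves could not be ordered. Without the 4 libraries that stood apart, r was 0.0469 for COL15A1 with CDH17, -0.0431 for COL15A1 with IL20RA and -0.0608 for CDH17 with IL20RA.

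Within HI (n = 14) r was 0.226 for COL15A1 with CDH17, -0.127 for COL15A1 with IL20RA and -0.295 for CDH17 with IL20RA. Within MOD (n = 15) the values were -0.241, -0.358 and 0.0833 in the same order. The adjusted permutation p of these 6 correlations was between 0.692 and 0.769. Within the 4 file-name prefixes that held 6 calves, r ran from -0.233 to 0.822 for COL15A1 with CDH17, from -0.337 to 0.270 for COL15A1 with IL20RA and from -0.149 to 0.480 for CDH17 with IL20RA, with an adjusted exact permutation p of 0.8 for each of the 12 values. The fifth prefix held 5 calves, and no correlation was computed under 6 calves.

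**Figure D4:**
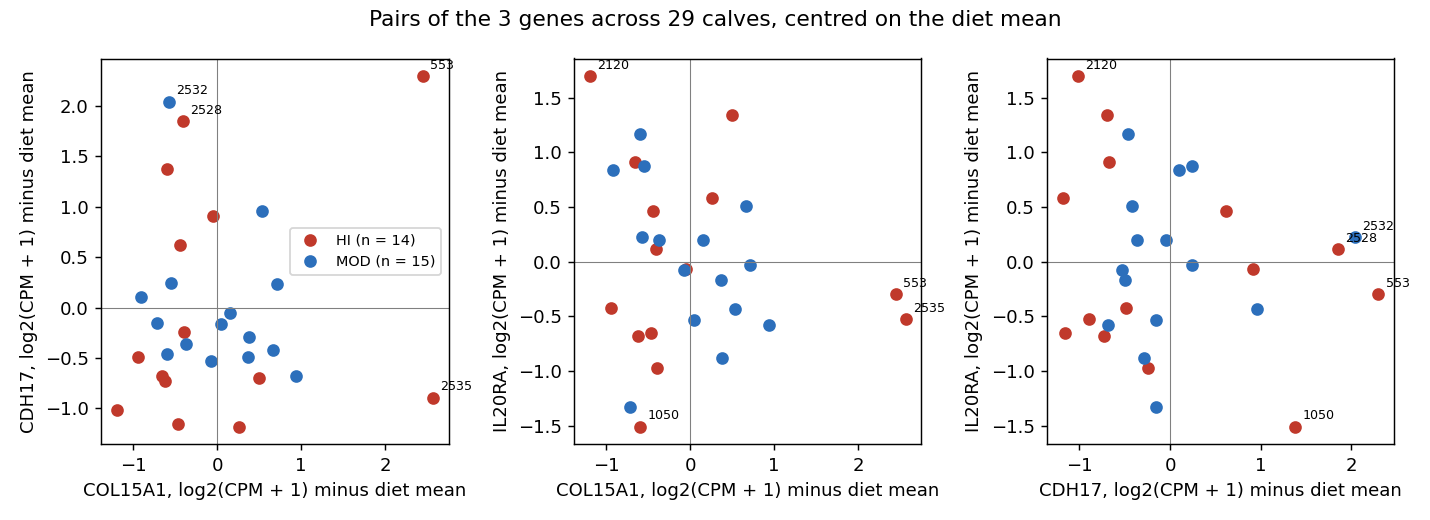
Each pair of COL15A1, CDH17 and IL20RA across 14 HI (red) and 15 MOD (blue) calves, as log2(CPM + 1) minus the mean of the diet on both axes. The points form no line in any panel (r of 0.111, -0.192 and -0.171 from left to right), and calf 553 alone is at the top right of the first panel.

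Set against the rest of the transcriptome, the 3 genes were not near each other in their pattern over calves. For COL15A1, 5250 of 13784 other genes had a larger r than CDH17, and 10241 had a larger r than IL20RA. For CDH17, 5542 of 13785 genes had a larger r than COL15A1 and 9732 a larger r than IL20RA. For IL20RA, 8487 of 13784 genes had a larger r than COL15A1 and 8271 a larger r than CDH17. The values that involve CDH17 are limited by its few reads.

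The genes most like each of them were sought by Pearson r of the diet-centred values over 29 calves among the 94 other genes past the filter whose identifiers could be paired with a symbol. The symbols came from the study's lists of transcripts that differed between the diets in the arcuate nucleus or in this tissue. These genes, and the markers below, are therefore not an unselected set. For COL15A1 they were TRHDE, which encodes an enzyme that degrades thyrotropin-releasing hormone, with r = 0.521 and rho = 0.668, the transcription factor gene ZIC1 with r = 0.477 and rho = 0.600, and SV2B, which encodes a synaptic vesicle glycoprotein, with r = 0.426 and rho = 0.664. For CDH17 they were GAD2, which encodes a GABA-synthesising enzyme, with r = 0.537 and rho = 0.418, and the calcium-gated channel family member ANO3 with r = 0.447 and rho = 0.381. For IL20RA they were PPP1R14A, which encodes an inhibitor of myosin phosphatase, with r = 0.582 and rho = 0.597, NKX2-8 with r = 0.496 and rho = 0.515, and HLA-DQA1, a class II antigen presentation gene, with r = 0.493 and rho = 0.473. No gene named here was among the most alike for more than 1 of the 3 genes. Among all genes past the filter, TRHDE ranked 46th for COL15A1, GAD2 ranked 9th for CDH17 and PPP1R14A ranked 180th for IL20RA, and the largest r of any gene was 0.656, 0.609 and 0.705, respectively.

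The 3 genes were tested over 78 pairs, formed with 24 marker genes, the read total and the normalisation factor. All listed genes of neurons (4 of 4) and peptide neurons (8 of 8) could be used. Only 3 of 7 listed genes could be used for pituitary, 2 of 6 for vessels, 1 of 6 for meninges (MSLN) and 1 of 4 for immune cells (HLA-DQA1). Pituitary, vessels, meninges and immune cells were therefore not tested as groups. Of the 78 pairs, 14 had a permutation p under 0.05 for Pearson r. None passed after adjustment for 78 pairs, where the smallest adjusted p was 0.0864, and 2 passed by Spearman rho, both with COL15A1. The count by Spearman rho was added after seeing the data. SV2B was higher in calves with more COL15A1, with rho = 0.664 (permutation p = 0.0001, adjusted p = 0.0078) and r = 0.426 (permutation p = 0.00202, adjusted p = 0.0864). TAC1, which encodes the precursor of substance P, was lower in calves with more COL15A1, with rho = -0.604 (permutation p = 0.00067, adjusted p = 0.0261) and r = -0.500 (permutation p = 0.00326, adjusted p = 0.0864). The remaining neuronal genes had rho of 0.229 (CHGA), 0.172 (GAD2) and 0.492 (NEFH) with COL15A1. Among the remaining peptide genes, GAL (0.266) and PDYN (0.226) had a positive rho. AVP, OXT, HCRT, PMCH and PENK had a negative rho, from -0.101 (PMCH) to -0.479 (PENK).

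For COL15A1 with SV2B, r was 0.271 within HI and 0.773 within MOD, a difference that was not tested. It was 0.480 when values were centred on the diet within each prefix, 0.644 without calves 2535 and 553, and 0.455 without the 4 calves that stood apart. For COL15A1 with TAC1 the values were -0.456 within HI, -0.674 within MOD, -0.493 within prefixes, -0.606 without calves 2535 and 553 and -0.519 without the 4 calves. SV2B averaged 252 ± 80.8 CPM (SD) over the HI and 227 ± 130 CPM (SD) over the MOD calves, and TAC1 averaged 7.28 ± 6.0 CPM and 13.3 ± 10.9 CPM.

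The largest r of CDH17 was with GAD2 (r = 0.537, permutation p = 0.00443, adjusted p = 0.0864, and rho = 0.418, adjusted p = 0.196). The other neuronal genes had r of -0.0418 (CHGA), -0.153 (NEFH) and -0.0356 (SV2B) with CDH17. GAD2 itself averaged 43.9 ± 41.3 CPM (SD) over the HI and 27.3 ± 17.1 CPM (SD) over the MOD calves. IL20RA had its largest values with HLA-DQA1 (r = 0.493, adjusted p = 0.124) and SV2B (r = -0.461, adjusted p = 0.0864), and its r with MSLN, a mesothelial and meningeal transcript, was 0.447 (adjusted p = 0.149). With IL20RA, r was -0.0375 for CHGA, -0.344 for GAD2 and -0.336 for NEFH. It was 0.421, 0.347 and 0.246 for the pituitary genes POMC, CGA and PRL. For the endothelial genes CLDN5 and VCAM1 it was 0.377 and 0.305, and for the acute phase genes HP and ORM1 0.361 and 0.166. None of these r passed after adjustment. COL15A1 had an r of -0.211 with the endothelial gene CLDN5 and of -0.250 with VCAM1, with adjusted p of 0.494 and 0.480. The part of the neuronal transcripts, of MSLN and of the other markers in the diet difference of the 3 genes was not tested.

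Neither the read total nor the normalisation factor passed the adjusted threshold with any of the 3 genes. The r with the read total was -0.0501 for COL15A1, -0.313 for CDH17 and 0.274 for IL20RA, with adjusted p of 0.895, 0.400 and 0.465. CDH17 had an r of 0.396 with the normalisation factor (permutation p = 0.0214, adjusted p = 0.167). Without the TMM adjustment the CDH17 difference between the diets was 0.57 on the log2 scale, against 0.56 with it.

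**Figure D5:**
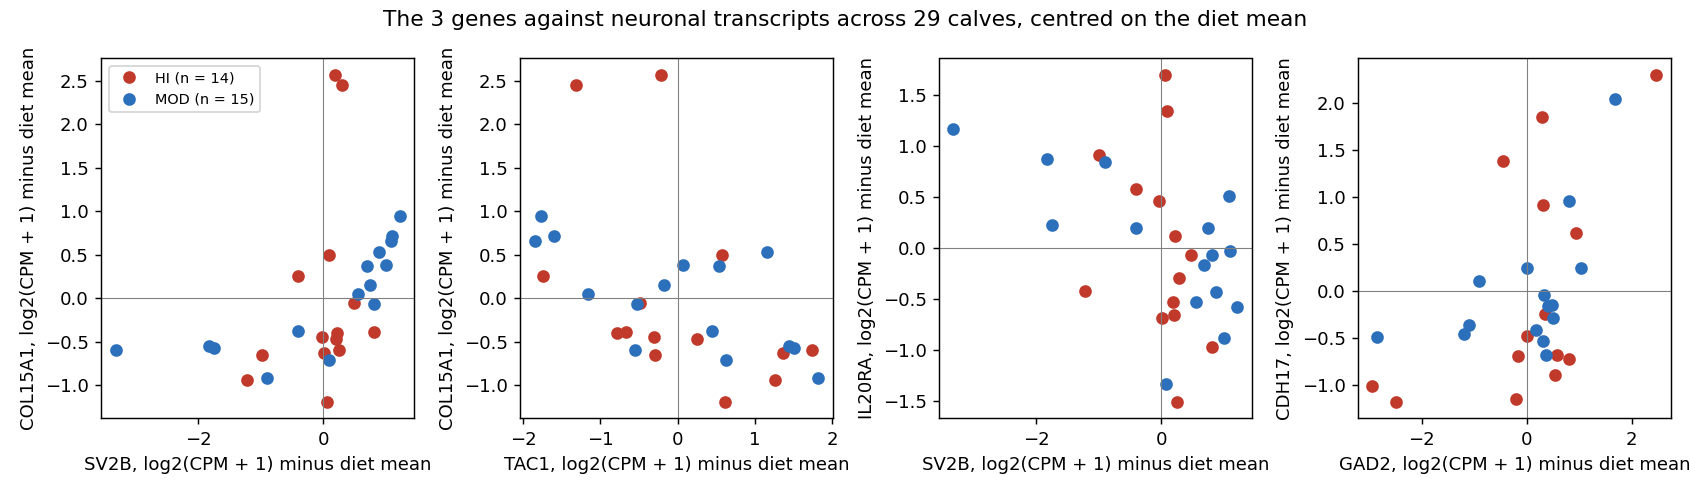
COL15A1 against SV2B and TAC1, IL20RA against SV2B and CDH17 against GAD2 across 14 HI (red) and 15 MOD (blue) calves, as log2(CPM + 1) minus the mean of the diet. COL15A1 climbs with SV2B (rho = 0.664) and declines with TAC1 (rho = -0.604), while HI calves 2535 and 553 lie above both trends.

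Of the genes listed as relatives or partners of the 3 proteins, only CDH23, another cadherin, could be read. Identifiers could be paired with a symbol for 1 of 16 genes of type XV collagen and basement membranes, 2 of 13 cadherins and their partners, and 1 of 16 genes of interleukin 20 receptor signalling, so that these lists hold the 3 genes themselves and CDH23. CDH23, a cadherin of sensory hair cells, averaged 7.95 ± 5.73 CPM (SD) over the HI and 6.51 ± 2.43 CPM (SD) over the MOD calves, with a limma difference of 0.13 (SE 0.22). Markers of choroid plexus, ependyma and astrocytes were not analysed here.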

How the data were processed

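RNA-Seq of the remaining hypothalamus was analysed in 29 calves (14 HI, 15 MOD), each a separate animal with its diet from the labels. The authors trimmed reads with Cutadapt 2.6 after FastQC 0.11.8, aligned them with STAR 2.6.1 to UMD3.1 with gene counting, and normalised by TMM in edgeR (versions per the labels). The methods of the study give other versions for some tools. The table deposited by the authors holds a signal, the TMM-normalised CPM of each gene. Dividing each column by the value of 1 read gave whole reads for 100% of values (largest deviation 7.94e-05 reads, tolerance 0.001). All columns matched a calf. The totals of 11820640 to 17206435 reads set the precision, and intervals and floors cover counting error only.

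The planned main test was limma 3.58.1 (R 4.3.3) with a trend on log2(CPM + 1), after removal of genes that did not exceed 1 CPM in 14 or more calves. It differs from the exact test of the study because the values are normalised. Alternatives were DESeq2 1.42.0 and both edgeR 4.0.16 tests on the recovered reads, limma-voom with quality weights, a pseudocount of 0.1 CPM, no filter, no TMM adjustment, RLE size factors, the prefix as a factor, ratios of means and each calf left out. Leaving out calves 553 and 2535, or the 4 calves that stood apart, was chosen after seeing the data, as were the count of marker pairs by Spearman rho and, for the number of genes called, the voom weights and the other normalisations. The scripts were tested on simulated data. Correlations used 100000 permutations within diets in Python 3.11.15, or exact permutation for 6 calves, with Benjamini-Hochberg adjustment. Spearman rho used ranks of diet-centred values.

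The genes, marker lists and tests were chosen with earlier results of these data known. Genes named are the 3 genes, the markers, and for each gene the 3 most alike among named genes, of which 1 is not reported here. The study's supplementary tables paired 114 identifiers with symbols, through lists of genes that differed between the diets in either tissue. The assembly ARS-UCD2.0 gene table matched 0 identifiers directly. Lists with under 80% of genes named are not described as groups. No coordinates or sequences are given.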

Additional observations from a re-analysis of the deposited data

How the results depend on the processing

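The diet difference of the 3 genes kept its sign under 11 settings and 29 fits without 1 calf. The fits without 1 calf gave 0.90 (without HI calf 2535) to 1.19 for COL15A1, 0.39 (without HI calf 553) to 0.71 for CDH17 and 0.56 (without HI calf 2120) to 0.81 for IL20RA. The number of genes called between the diets was 0 by limma, 1 by the edgeR exact test and 2 by DESeq2. It stayed at 0 under 7 other settings. The correlation of COL15A1 with CDH17 turned from 0.111 to -0.0184 by Spearman rho and to -0.114 without calves 2535 and 553, farthest from the COL15A1 median, and without 1 calf it ran from -0.201 (without calf 553) to 0.267 (without calf 2535). That of COL15A1 with IL20RA ran from -0.263 to -0.0921 and that of CDH17 with IL20RA from -0.219 to -0.0711 (without the 4 calves that stood apart they were -0.0431 and -0.0608), and the smallest permutation p of all these fits was 0.216. Pairs of the 3 genes with marker genes past the adjusted threshold numbered 0 by Pearson r and 2 by Spearman rho. The cause was not tested. No paired analysis was possible because the labels number no replicates across the diets. The study assigned diets within blocks of age, body weight, sire and farm, but the labels do not give the blocks. It sequenced only healthy calves whose daily gain was near the mean of their group. The depth limits CDH17, which had a median of 10.5 reads in HI and 7 in MOD.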
